A study of Mus musculus with 10 samples.

Results

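The 10 genes described here encode the subunits of the transcription factor NF-κB and the IκB proteins that bind them. They are Nfkb1, Nfkb2, Rel, Rela and Relb (subunits), Nfkbia, Nfkbib and Nfkbie (classical cytoplasmic IκB inhibitors), and Nfkbiz and Bcl3 (nuclear IκB proteins). They were taken by gene symbol from 2 expression tables of 48897 rows each, and every member had exactly 1 row in both tables. The first table holds RNA-seq of prostate epithelium sorted as EpCAM+ CD45- cells from 3-month-old C57BL/6 mice. Of its 6 libraries 3 are labelled Arid1aPC-/- and the 3 controls are not, and the mice of both groups carry a further deletion in the prostate epithelium, so none is wild type. The deletions depend on a Cre recombinase under the Probasin promoter, which is active in prostate epithelium, and cells that escaped Cre or come from elsewhere keep the deleted sequences. The second table holds Myc-CaP, a prostate cancer line from FVB mice that carry a Myc transgene, with 2 libraries of empty vector (EV) control and 2 of Arid1a KO made by lentiviral CRISPR. The labels describe Myc-CaP grown in culture and do not say whether its libraries came from separate cultures, so p-values there measure only the spread between these libraries. Arid1a encodes a DNA-binding subunit of the SWI/SNF chromatin remodelling complex, and libraries labelled for its loss were compared with controls in each system.

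NF-κB is a dimer of Rel-homology proteins. In resting cells the IκB proteins, chiefly the product of Nfkbia, hold it in the cytoplasm. Signals from TNF, interleukin-1 or Toll-like receptors activate the IκB kinase complex, which marks the inhibitor for ubiquitination and destruction, and the freed dimer enters the nucleus. Nfkb1 and Nfkb2 encode precursors that are trimmed to DNA-binding subunits without an activation domain, whereas Rela, Rel and Relb encode the subunits that activate transcription. Relb pairs mainly with the Nfkb2 product in the non-canonical pathway, which runs through the kinase encoded by Map3k14. Rel is known above all from lymphoid and myeloid cells. Several of these genes, Nfkbia first among them, are textbook targets of NF-κB itself, so that the pathway writes its own inhibitor.

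Promoter sequences of 7 members were found in a RefSeq set for the build GRCm38.p6 (Nfkb2, Rel, Rela, Nfkbia, Nfkbib, Nfkbie and Bcl3), each reaching from 250 bases before the start of transcription to 50 after it. Nfkb1, Relb and Nfkbiz had no entry. The consensus κB motif, a 10-base sequence searched on both strands, occurred in 5 of the 7 (Nfkb2, Rel, Nfkbia, Nfkbie and Bcl3), beside 9.55% of the 27025 gene symbols in the set. A symbol with several starts, such as Nfkb2 with 3, was counted once, and of the 32851 single promoters 8.46% held the motif. Within the 250 bases before the start it occurred in 4 of the 7, beside 8.23% of symbols and 7.25% of single promoters, because the match of Bcl3 lies at bases 2 to 11 after its start. Because the motif is nearly palindromic, matches on opposite strands can overlap, as in Nfkb2 and Rel, and a match describes the letters only. The stretches around the matches are shown 5′ to 3′ on the strand of the gene, with the matching bases in capitals, because 3 of these 4 genes were called higher in the labelled KO epithelium and Nfkb2 was also called in Myc-CaP. For Rel (chr11:23770970-23771089, - strand), Nfkbia (chr12:55492648-55492767, - strand) and Nfkbie (chr17:45555580-45555699, + strand) the 120 bases before the start are given. For Nfkb2 (+ strand) only 2 short sites are given (chr19:46304693-46304713 and chr19:46304720-46304736), since the GENCODE gene already starts before them, at base 46304320.
Rel: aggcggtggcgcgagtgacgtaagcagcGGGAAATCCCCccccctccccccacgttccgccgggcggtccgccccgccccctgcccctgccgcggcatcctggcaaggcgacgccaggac
Nfkbia: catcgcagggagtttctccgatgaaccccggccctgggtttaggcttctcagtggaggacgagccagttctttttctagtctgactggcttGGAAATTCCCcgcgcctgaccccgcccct
Nfkbie: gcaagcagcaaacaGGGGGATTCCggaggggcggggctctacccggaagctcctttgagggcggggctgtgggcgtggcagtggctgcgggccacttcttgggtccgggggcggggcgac
Nfkb2, first site: gtcacGGGAATTCCCCccctc
Nfkb2, second site: ccgaaaGGGGCTTTCCc

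Before the members, the labels were checked. Arid1a in Myc-CaP fell from 60.7 ± 0.355 TPM (SD, n = 2) in EV to 39.9 ± 0.581 TPM (n = 2) in KO libraries (log2 fold change -0.59 ± 0.06, limma, adjusted p = 0.0102). In the epithelium it was not lower: the control libraries held 25.4 ± 3.13 RPKM and the labelled KO libraries 30.2 ± 1.23 RPKM (SD, n = 3 each; log2 fold change 0.25 ± 0.09, adjusted p = 0.0540). A whole-gene value can miss the removal of single exons, so the loss of Arid1a could not be checked in the epithelium, and its 3 libraries of that genotype are called "labelled KO" here. Depth in the epithelium came to about 28800000 to 36300000 mapped reads per library, as judged from the read steps in low values. Absolute depth of the TPM table is unknown and its libraries differed in relative depth by 1.15-fold at most. The epithelium libraries also held transcripts of genes listed here as markers of other tissues or cells. All 7 seminal vesicle genes were lower in the labelled KO libraries (sums of 19411 to 21910 RPKM in controls against 647 to 1631 RPKM). Leukocyte genes were detected despite the CD45- gate, as given beside the results they move with. Whether such transcripts came from other cells or from the sorted cells themselves was not tested. Myc-CaP libraries had Epcam listed at 0 in both EV libraries, and Krt8 rose from 0.932 TPM to 39.6 TPM, so these defining markers of luminal epithelium were absent or nearly so in the control line. In bulk RNA, fewer cells of a type and less RNA per cell cannot be told apart.

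In the epithelium, Rel, Nfkbie and Nfkbiz showed the largest differences among the members and were 1.82 to 3.74 times as high in the labelled KO libraries. Nfkb1, Nfkb2 and Nfkbib rose less, Relb alone fell, and Rela, Nfkbia and Bcl3 did not pass the test. In all, 7 of the 10 members were called at an adjusted p under 0.05, 6 of them higher and 1 lower. Among all 16275 genes tested in this comparison 57.1% were called, 27.5% higher and 29.6% lower, so a called gene was no rarity here, and 6 of the 7 calls among the members were in the higher direction. By non-overlapping groups, 8 members were higher and 1 lower, beside 66.7% of all genes without overlap (32.4% higher and 34.4% lower). The study's thresholds of 1.5-fold and p under 0.05 were applied to the limma fit, whereas the study took its p-values here from DEGseq. At these thresholds 3 members remained (Rel, Nfkbie and Nfkbiz, all higher), beside 24.8% of all genes in either direction and 11.8% higher. The members had a median log2 fold change of 0.31, beside -0.03 for all genes tested.

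**Figure D1:**
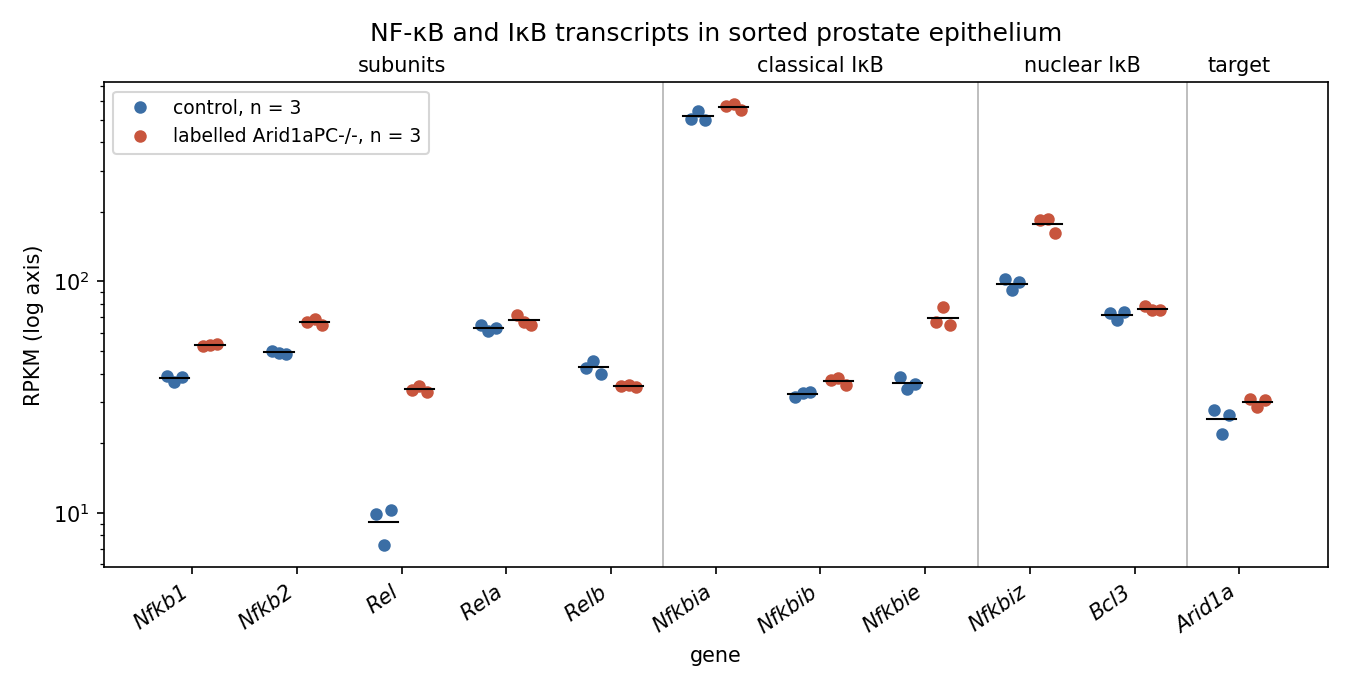
Level of each member and of Arid1a in the 6 libraries of sorted prostate epithelium, in RPKM on a log axis, with 1 point per library and a bar at the group mean (n = 3). Rel lies at 7.25 to 10.3 RPKM in the controls and at 33.1 to 35.4 RPKM in the labelled KO libraries, whereas Rela overlaps between the groups.

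Among the subunits, Rel, which encodes c-Rel, moved most. Its level was 9.88, 7.25 and 10.3 RPKM in the controls, in the order A to C used throughout, and 34.0, 35.4 and 33.1 RPKM in the labelled KO libraries. No value of either group came near the other, and the means of 9.13 ± 1.64 and 34.2 ± 1.14 RPKM (SD, n = 3 each) stand 3.74-fold apart (log2 fold change 1.81 ± 0.12, limma, adjusted p = 3.56e-05). Rel was the lowest of all members in the control epithelium and reached the level of Relb in the labelled KO libraries.

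Nfkb1, the precursor of the canonical DNA-binding subunit, was at 39.1, 36.9 and 38.5 RPKM in controls and at 52.8, 53.1 and 53.5 RPKM in the labelled KO libraries. The groups did not overlap, and the 1.39-fold difference was larger than the spread between mice (log2 fold change 0.47 ± 0.05, adjusted p = 3.58e-04 by limma). Nfkb2, the precursor of the non-canonical pathway, was at 50.3, 49.2 and 48.8 RPKM in controls and at 67.0, 68.9 and 64.6 RPKM in the labelled KO libraries. This gene too was higher in every labelled KO library, by 1.35-fold (log2 fold change 0.43 ± 0.06, limma, adjusted p = 6.07e-04). Nfkb2 shares 299 bases with Psd and 1292 bases with a noncoding gene on the opposite strand, so its value depends on the strand-specific counting that the study states.

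Relb, the usual partner of the Nfkb2 product, went the other way. Control libraries held 42.5, 45.2 and 40.0 RPKM and labelled KO libraries 35.5, 35.7 and 34.9 RPKM. All 3 labelled KO values lay below all 3 control values, with means of 42.6 ± 2.62 and 35.4 ± 0.413 RPKM (log2 fold change -0.26 ± 0.06, limma, adjusted p = 0.0102). This call depended on the scaling. With all libraries set to the same summed RPKM, the all-gene median went from -0.03 to 0.11 on the log2 scale, 64.6% rather than 48.1% of calls were higher, and Relb stood at -0.08 (limma, adjusted p = 0.262). Rela, the main activating subunit of the canonical pathway, was at 64.9, 61.3 and 62.9 RPKM in controls and at 71.9, 67.0 and 64.6 RPKM in the labelled KO libraries. The groups overlapped, and the difference missed the threshold (log2 fold change 0.10 ± 0.06, 95% interval -0.05 to 0.25, limma, adjusted p = 0.199).

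Of the classical inhibitors, Nfkbie, which encodes IκBε, changed most. It stood at 38.6, 34.3 and 36.0 RPKM in the control libraries and at 67.1, 77.5 and 65.0 RPKM in the labelled KO libraries. Every labelled KO value exceeded every control value, and the mean was 1.92 times as high (log2 fold change 0.92 ± 0.08, limma, adjusted p = 1.21e-04). Nfkbib, which encodes IκBβ, differed by far less, with 31.7, 33.0 and 33.2 RPKM in controls and 37.4, 38.3 and 35.8 RPKM in the labelled KO libraries. Its groups did not overlap and it passed the test narrowly (log2 fold change 0.18 ± 0.06, limma, adjusted p = 0.0268). The call was lost when control A, control C, labelled KO A or labelled KO B was left out (adjusted p up to 0.0915). Nfkbib also shares 718 bases with Ccer2 and 778 bases with Sirt2 on the opposite strand.

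Nfkbia, which encodes IκBα, was the most abundant member in every library. Its levels were 505, 547 and 500.3 RPKM in controls and 574, 583 and 550.0 RPKM in the labelled KO libraries. Although the lowest labelled KO value was just above the highest control value, the difference did not pass the test (518 ± 25.9 against 569 ± 17.2 RPKM, log2 fold change 0.14 ± 0.08, limma, adjusted p = 0.176). Under the same-sum scaling, the log2 fold changes of Nfkbia, Rela and Bcl3 were 0.32, 0.28 and 0.27, and all 3 were called higher, which makes 9 of 10 members higher and none lower. This scaling raised the median of all genes as given for Relb, and Rel remained the member with the largest rise and Relb the only member below 0.

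The nuclear IκB proteins act on promoters rather than in the cytoplasm. Nfkbiz, which encodes IκBζ, a coactivator of a subset of inflammatory genes, was at 102, 91.5 and 99.2 RPKM in controls and at 184, 186 and 162 RPKM in the labelled KO libraries. The groups were far apart, with means of 97.6 ± 5.49 and 177 ± 13.0 RPKM (log2 fold change 0.85 ± 0.08, limma, adjusted p = 1.34e-04). Bcl3, which binds the trimmed Nfkb1 and Nfkb2 products in the nucleus, was at 73.4, 68.2 and 73.5 RPKM in controls and at 78.6, 75.2 and 75.3 RPKM in the labelled KO libraries. Its labelled KO values were all higher but by a margin that missed the test (log2 fold change 0.09 ± 0.06, 95% interval -0.05 to 0.23, adjusted p = 0.233 by limma).

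Ratios within a library do not depend on how libraries are scaled to each other. They can depend on gene length and on quantile normalization, and were not recomputed under those refits. The ratio of Rel to Rela was 0.145 ± 0.0234 in the control epithelium and 0.504 ± 0.0286 in the labelled KO libraries (SD, n = 3 each), without overlap. Rel made up 4.51% of the summed RPKM of the 5 subunits in controls and 13.3% in the labelled KO libraries, while Rela went from 31.1% to 26.4% and Relb from 21.05% to 13.8%. In these RPKM the shares of Nfkb1 and Nfkb2 went from 18.9% to 20.7% and from 24.4% to 26.0%. The ratio of Nfkb2 to Nfkb1 overlapped between groups (1.295 ± 0.0332 and 1.26 ± 0.0469). With the gene length trend removed, the log2 fold change was 0.25 for Nfkb1 and 0.45 for Nfkb2, against 0.47 and 0.43. The ratio of Nfkb2 to its partner Relb was 1.16 ± 0.0692 in controls and 1.89 ± 0.0406 in the labelled KO libraries. Summed classical inhibitors were 2.90 ± 0.155 times the summed subunits in controls and 2.63 ± 0.0523 times in the labelled KO libraries. Within the inhibitors, Nfkbie went from 6.21% to 10.3% and Nfkbia from 88.2% to 84.2%, whereas Nfkbib stayed within the range of the controls (5.57% and 5.50%). Bcl3 was at 0.735 ± 0.0147 of the level of Nfkbiz in controls and at 0.432 ± 0.0299 in the labelled KO libraries. These ratios describe transcripts, not proteins, and no test was run on them.

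**Figure D2:**
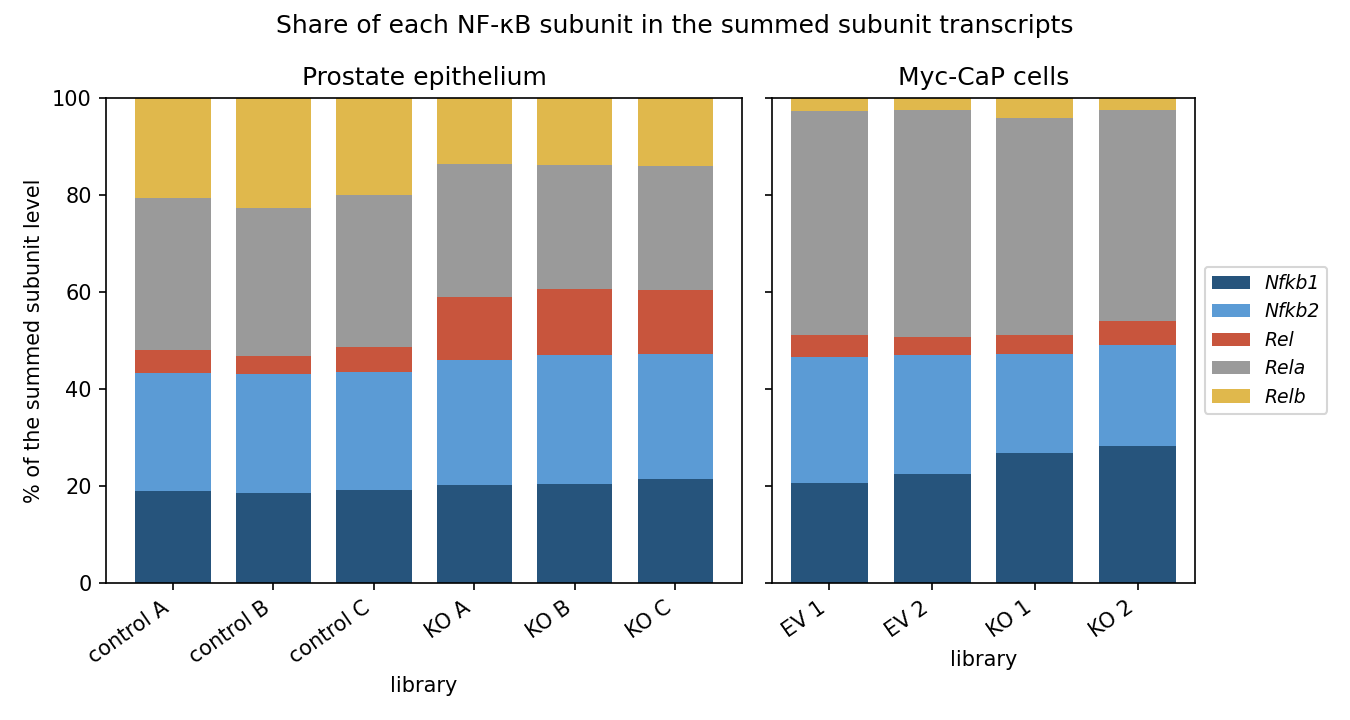
Share of each subunit in the summed level of the 5 subunit transcripts, in percent, with 1 bar per library and the scale starting at 0. In the epithelium the share of Rel widens from 3.63% to 5.12% in the controls to 13.0% to 13.6% in the labelled KO libraries, and Relb has 13.6% or more there against 2.39% to 4.08% in Myc-CaP.

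In order of level per length, the control epithelium had Nfkbia first, followed by Nfkbiz, Bcl3, Rela, Nfkb2, Relb, Nfkb1, Nfkbie, Nfkbib and Rel. Only Nfkb1 and Nfkbie overlapped among neighbours of this order. In the labelled KO epithelium Nfkbia and Nfkbiz kept the first places, and Bcl3, Nfkbie, Rela and Nfkb2 followed with ranges that overlapped from each to the next. Below them came Nfkb1, Nfkbib, Relb and Rel, of which Relb and Rel overlapped.

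Leukocyte markers moved with the members. Their counts stand beside the 57.1% of all genes called in this comparison (27.5% higher and 29.6% lower). The T cell, dendritic cell, neutrophil, fibroblast and endothelial lists had no larger share of their genes called than 57.1%. All calls in the T cell and dendritic cell lists were in the higher direction. Of 6 general leukocyte genes all 6 were called, 5 of them higher (Ptprc, which encodes CD45, Cd53, Laptm5, Lcp1 and Coro1a) and Cd52 lower, with summed levels of 792 to 819 RPKM in controls and 942 to 1012 RPKM in the labelled KO libraries. Cd52 had the highest control level of the 6 and fell from 344 to 161 RPKM within these sums. Ptprc itself went from 28.6 to 57.3 RPKM. All 8 macrophage genes were higher (sums of 2305 to 2692 against 4130 to 4838 RPKM), as were 4 of 5 B cell genes tested (125 to 140 against 430 to 752 RPKM), 2 of 6 dendritic cell genes (51.6 to 65.0 against 116 to 121 RPKM) and 3 of 6 T cell genes (20.6 to 25.1 against 31.2 to 33.7 RPKM). Of 8 neutrophil genes 3 were higher and 1 lower, and their sums overlapped (340 to 475 against 385 to 633 RPKM). Of 6 fibroblast genes 3 were lower, and of 6 endothelial genes 1 was higher. Of 6 epithelial genes, Krt14 went from 146 to 799 RPKM and Krt5 from 302 to 762 RPKM, both called higher. Epcam went from 304 to 201 RPKM and Krt18 from 577 to 444 RPKM, both called lower, and Krt8 and Cdh1 were not called. How these changes relate to those of the members was not tested. No gene of these lists was at 0 in all libraries.

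Set against these markers within each library, the members that rose most did not behave alike. The ratio of Rel to Ptprc was 0.317 ± 0.0353 in controls and 0.596 ± 0.0180 in the labelled KO libraries, and its ratio to the macrophage sum was also higher in every labelled KO library, but its ratio to the B cell sum overlapped (0.0695 ± 0.0158 and 0.0598 ± 0.0177). Nfkbie was at 1.27 ± 0.0505 times the level of Ptprc in controls and at 1.22 ± 0.105 times in the labelled KO libraries, with overlap. Nfkbiz was at 3.41 ± 0.0897 times Ptprc in controls and, lower in every library, at 3.10 ± 0.241 times in the labelled KO libraries. Against the macrophage sum both genes overlapped between groups as well. Against Cd53 and against the B cell sum both were lower in every labelled KO library. For Nfkbie these ratios went from 1.14 ± 0.0675 to 0.81 ± 0.059 (Cd53) and from 0.275 ± 0.0258 to 0.122 ± 0.0348 (B cell sum). For Nfkbiz they went from 3.06 ± 0.122 to 2.05 ± 0.0126 and from 0.740 ± 0.0755 to 0.313 ± 0.107. The ratio of Rel to Cd53 was higher in every labelled KO library (0.284 ± 0.0295 and 0.397 ± 0.0221). The part of leukocyte RNA in the differences of Rel, Nfkbie, Nfkbiz and the other members was not tested.

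In Myc-CaP, Rel, Nfkbie and Nfkbiz did not pass the test, and 1 member was called. That member was Nfkb2, and it was lower. Ptprc was at 0.0441 TPM or less in every Myc-CaP library, the leukocyte genes summed to at most 5.52 TPM and the macrophage genes to at most 2.92 TPM, and no neutrophil, dendritic or B cell gene reached the minimum level for testing. The systems also differ in cell source and in libraries per group, and what lies behind the different calls was not tested. Among all 13974 genes tested 6.43% were called, 4.54% higher and 1.89% lower. Groups did not overlap for 3 members that were higher and 3 that were lower, beside 51.5% of all genes (24.9% higher and 26.6% lower). At the study's thresholds no member remained in Myc-CaP, beside 6.28% of all genes in either direction and 4.62% higher, and 4 members had an unadjusted limma p under 0.05. The members had a median log2 fold change of 0.05, beside -0.01 for all genes tested.

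**Figure D3:**
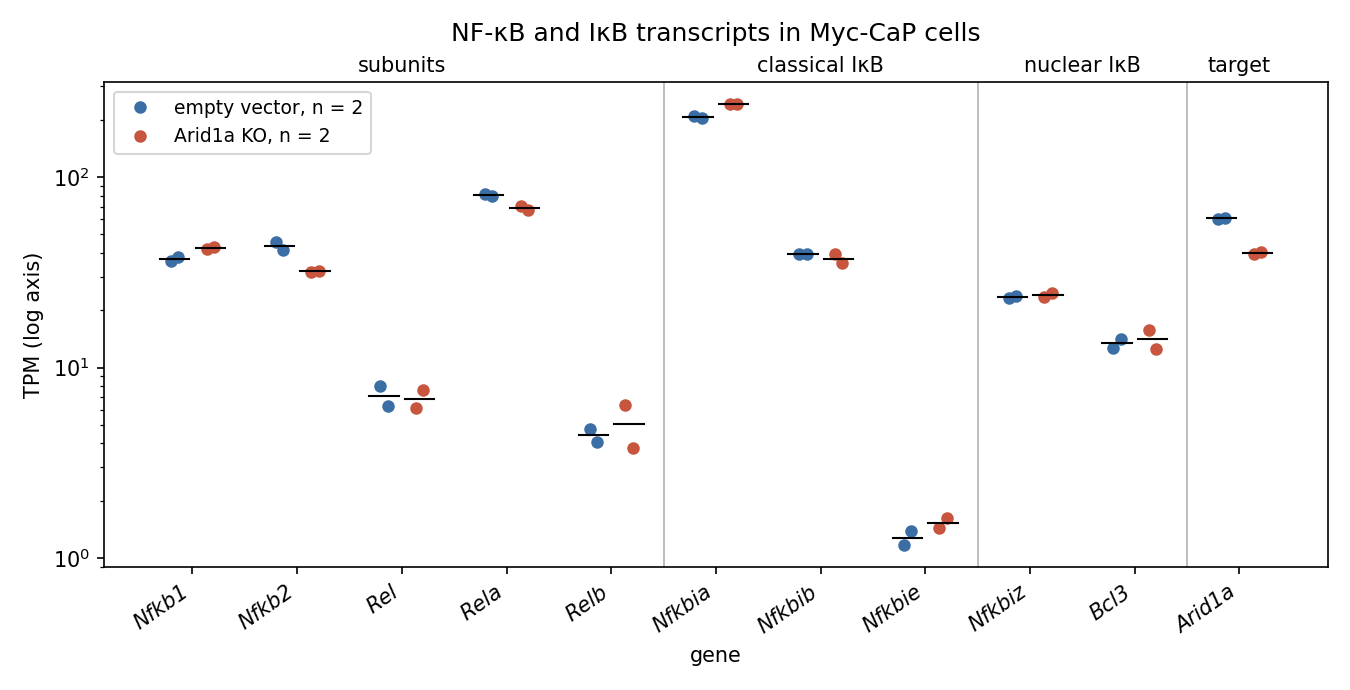
Level of each member and of Arid1a in the 4 Myc-CaP libraries, in TPM on a log axis, with 1 point per library and a bar at the group mean (n = 2). Nfkb2 lies at 41.7 and 45.4 TPM in EV and at 31.9 and 32.1 TPM in KO libraries, and Rel overlaps between the groups.

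Nfkb2 was at 45.4 and 41.7 TPM in the EV libraries and at 31.9 and 32.1 TPM in the KO libraries. The KO values lay below both EV values and the call was narrow (43.5 ± 2.66 against 32.0 ± 0.158 TPM, log2 fold change -0.43 ± 0.07, limma, adjusted p = 0.0373). It was lost without a filter on low values (limma, adjusted p = 0.0773), with median ratio scaling (0.0518) and without a mean-variance trend (0.0958). The call was also lost without any 1 of the 4 libraries, but such refits leave 1 library in a group and lost most calls over all genes. In all these refits the log2 fold change stayed between -0.49 and -0.37. Nfkb1 was at 36.3 and 37.9 TPM in EV and at 41.8 and 43.1 TPM in KO libraries. Both KO values were higher, but the difference did not pass the test (log2 fold change 0.19 ± 0.06, limma, adjusted p = 0.175). The ratio of Nfkb2 to Nfkb1 was 1.18 ± 0.108 in EV and 0.753 ± 0.0134 in KO libraries.

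Rel was low in Myc-CaP, at 7.99 and 6.27 TPM in EV and at 6.13 and 7.63 TPM in KO libraries. The groups overlapped, and the 95% interval of the log2 fold change ran from -0.47 to 0.38 (estimate -0.04 ± 0.16, limma, adjusted p = 0.918). Relb was lower still and overlapped too, at 4.77 and 4.06 TPM in EV and 6.38 and 3.79 TPM in KO libraries (0.14 ± 0.24, limma, adjusted p = 0.792). Rela was the most abundant subunit, at 81.3 and 79.5 TPM in EV and at 70.2 and 66.8 TPM in KO libraries. The KO values were both lower without passing the test (log2 fold change -0.23 ± 0.06, limma, adjusted p = 0.1002).

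The inhibitors changed little. Nfkbia was at 208 and 203 TPM in EV and at 241 and 240.6 TPM in KO libraries, which do not overlap (log2 fold change 0.23 ± 0.05, limma, adjusted p = 0.0718). Nfkbib had 39.7 and 39.6 TPM in EV and 39.3 and 35.3 TPM in KO libraries (-0.09 ± 0.08, limma, adjusted p = 0.580). Nfkbie was the lowest member, at 1.17 and 1.38 TPM in EV and 1.44 and 1.62 TPM in KO libraries (0.15 ± 0.17, limma, adjusted p = 0.678). Both nuclear proteins overlapped between groups. Nfkbiz was at 23.1 and 23.9 TPM in EV and 23.4 and 24.6 TPM in KO libraries (0.03 ± 0.07, limma, adjusted p = 0.863). Bcl3 was at 12.7 and 14.2 TPM in EV and at 15.9 and 12.5 TPM in KO libraries (0.06 ± 0.14, limma, adjusted p = 0.846).

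Ratios of summed inhibitors to summed subunits in Myc-CaP were 1.43 ± 0.0170 in EV and 1.81 ± 0.00321 in KO libraries (SD, n = 2 each). The KO libraries were higher here and those of the labelled KO epithelium lower than their controls, and the difference between systems was not tested. In the epithelium the log2 fold change of Nfkbia was 0.37 with quantile normalization or with the gene length trend removed, against 0.14. These refits also moved the subunits, and the inhibitor ratio was not recomputed under them. In EV libraries the order by level was Nfkbia, Rela, Nfkb2, Nfkbib, Nfkb1, Nfkbiz, Bcl3, Rel, Relb and Nfkbie, with no overlap between neighbours. In KO libraries Nfkb1 and Nfkb2 had changed places around Nfkbib, and Rel and Relb overlapped.

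The tables have different units and were normalized separately, so only ratios within a library can be set side by side. Nfkbie was at 0.0704 of the level of Nfkbia in the control epithelium and at 0.00621 in EV cells. Relb made up 21.05% of subunit transcripts in the control epithelium and 2.55% in EV cells, where Rela made up 46.6%. Rel, by contrast, had a like share in both controls, 4.51% and 4.12%. Of the 3 members with the largest rise in the epithelium, each had a log2 fold change between -0.04 and 0.15 in Myc-CaP. For Nfkb2 (0.43 against -0.43) and Nfkbib (0.18 against -0.09) the KO values lay on opposite sides of the controls in the 2 systems, and this contrast was not tested. Nfkbib was not called in Myc-CaP (limma, adjusted p = 0.580). There KO 1 at 39.3 TPM lay just below the EV values of 39.7 and 39.6 TPM. A lack of overlap held for 51.5% of all Myc-CaP genes.

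**Figure D4:**
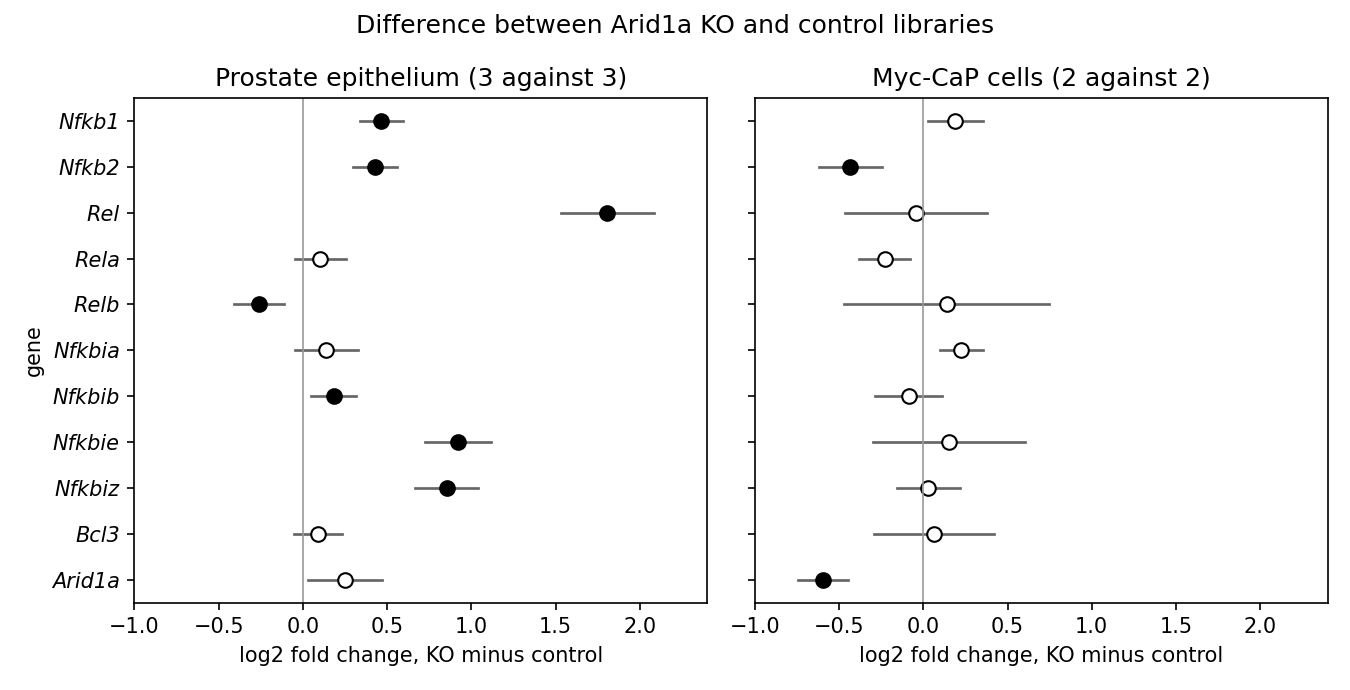
Log2 fold change of each member and of Arid1a (KO minus control, on the log2(value + 1) scale) with its 95% interval from limma, in the epithelium (3 against 3 libraries) and in Myc-CaP (2 against 2 libraries). Filled points passed an adjusted p of 0.05: Rel stands at 1.81 in the epithelium and -0.04 in Myc-CaP, and Nfkb2 at 0.43 and -0.43.

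The lists of other pathway genes are given as counts to be read beside the share of all genes called, which was 57.1% in the epithelium (27.5% higher and 29.6% lower) and 6.43% in Myc-CaP. Under the same-sum scaling the epithelium split became 9 higher and 0 lower for the kinase list, 7 and 0 for the adaptors, 4 and 0 for the receptors, 5 and 2 for the negative regulators, 2 and 3 for the ligase and 12 and 2 for the targets. Of 12 genes of the IκB kinase complex, its upstream kinases and their adaptor subunits 8 were higher in the epithelium and 1 (Tab1) lower, with a median log2 fold change of 0.36 beside -0.03 for all genes. Ikbke, a kinase related to the IκB kinases, rose from 9.51 ± 0.531 to 19.1 ± 1.20 RPKM (0.94 ± 0.07, limma, adjusted p = 6.47e-05). Ikbkb, the catalytic subunit of the canonical complex, and Map3k8, a kinase held by the Nfkb1 precursor, each rose by 0.47 on the log2 scale. In Myc-CaP none of the 12 was called by limma, and 2 had an unadjusted p under 0.05 (Ikbkb and Map3k7), with a median of 0.02. Of 10 TRAF, cIAP and death domain adaptors, which link receptors to the kinases, 5 were higher in the epithelium, led by Traf6 (0.71) and Traf1 (0.50) with Traf3 (0.36), Myd88 and Birc3, and 2 were lower (Traf2 and Traf5), with a median of 0.14. None of 8 tested in Myc-CaP was called by limma, and 3 had an unadjusted p under 0.05 (Traf5, Tradd and Irak1), with a median of 0.02. Genes named in these lists beyond the 3 with the largest change were chosen after their values were seen.

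Receptors were mixed in the epithelium, with 2 of 8 higher, 2 lower and a median of 0.09. Tnfrsf1b, a TNF receptor common on leukocytes, rose most (39.6 ± 1.34 to 78.7 ± 7.81 RPKM, log2 fold change 0.97 ± 0.08), Tnfrsf11a rose by 0.25, and Il1r1 and Ltbr fell (log2 fold changes -0.30 and -0.20). The count of 4 receptors fell to 1 without control C, labelled KO B or labelled KO C, and to 2 without labelled KO A, with the replicate block or without a filter. In Myc-CaP 1 of 6 was called, the TNF receptor gene Tnfrsf1a (0.44 ± 0.08, limma, adjusted p = 0.0412). This call was lost without any 1 library, as were most calls over all genes. The 5 genes of the ligase that ubiquitinates IκB had a median of -0.47 in the epithelium, with 3 lower and 1 higher. Btrc, which recognises phosphorylated IκB, fell (-0.57 ± 0.09), as did Skp1a and Rbx1 (both -0.47), while Fbxw11, the paralogue of Btrc, rose (0.42). None of these 5 was called in Myc-CaP by limma, and 2 (Btrc and Fbxw11) had an unadjusted p under 0.05.

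Of 10 other negative regulators 3 rose and 3 fell in the epithelium, with a median of 0.07. Tnfaip3, a ubiquitin-editing brake on the pathway, rose from 83.2 ± 4.20 to 159 ± 11.7 RPKM (log2 fold change 0.93 ± 0.08, limma, adjusted p = 8.49e-05), Nfkbid, a further nuclear IκB gene, rose by 0.75, and Pdlim2, which targets Rela for degradation, fell (-1.12 ± 0.10). In Myc-CaP Tnfaip3 and Pdlim2 both changed in the opposite direction, with Tnfaip3 at -0.63 ± 0.06 (limma, adjusted p = 0.0108) and Pdlim2 at 1.008 ± 0.08 (adjusted p = 0.00666), and these contrasts between systems were not tested. Among 20 target genes 10 rose and 4 fell in the epithelium, with a median of 0.22, so that 14 were called beside 57.1% of all genes. Ptgs2, the inducible cyclooxygenase, rose by 1.42 and the acute-phase gene Saa3 by 1.22, whereas the chemokine gene Ccl20 fell (-1.44). Of 13 targets tested in Myc-CaP 6 were called beside 6.43% of all genes, of which 5 rose (Cxcl10 by 0.98, Ptgs2 by 0.78, Cxcl1, Csf1 and Gadd45b) and Lcn2, which encodes a secreted iron-scavenging protein, fell (-1.58 ± 0.06, limma, adjusted p = 0.00135). With any 1 Myc-CaP library left out, most of these target calls and those of Tnfaip3 and Pdlim2 were lost. Such refits leave 1 library in a group and lost most calls over all genes. Several of these targets are made by leukocytes, whose markers moved in the epithelium as given above, and that part was not tested.

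For each member, the most similar profile was sought among the other members and the pathway genes measured in both tables (62 candidates), by Pearson's r of log2(value + 1) centred within each table over the 10 libraries. These libraries hold the 2 group contrasts, so r mostly restates them, and no test was run. Nfkbie and Nfkbiz were each other's nearest profile (r = 0.985), and Rel was nearest to Nfkbiz (0.981). Nfkb1 was nearest to Ikbke (0.990), and Nfkb2, which changed in opposite directions in the systems, to Tnfaip3 (0.967), which did so as well. Relb was nearest to Tab1 (0.914), Nfkbia to the chemokine gene Cxcl2 (0.887), Nfkbib to Ikbkb (0.870) and Rela to Nfkb2 (0.846). Bcl3 had no close match, with Fbxw11 first at 0.553.

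In the GENCODE M21 annotation of GRCm38 the members lie on 7 chromosomes. The subunit genes are at chr3:135584655-135691547 (Nfkb1), chr19:46304320-46312385 (Nfkb2), chr11:23736847-23770970 (Rel), chr19:5637483-5648130 (Rela) and chr7:19606217-19629438 (Relb). The inhibitor genes are at chr12:55489410-55492647 (Nfkbia), chr7:28758251-28767512 (Nfkbib) and chr17:45555703-45563169 (Nfkbie). Nfkbiz is at chr16:55811375-55838899 and Bcl3 at chr7:19808462-19822770. Relb, Bcl3 and Nfkbib thus share chromosome 7, and in the epithelium they were called lower, not called and called higher in that order. Bcl3 overlaps 2 antisense genes on the other strand, and Nfkb1 contains a provisional gene model on its own strand.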

How the data were processed

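Gene-level RNA-seq values of 10 mouse libraries were used as deposited. The authors deposited RPKM (reads scaled by gene length and library depth) for the sorted epithelium and TPM for Myc-CaP. Paired-end reads were aligned to GRCm38/mm10 by the authors with TopHat2 and counted per strand with HTSeq-count according to the study's methods; the submitters' processing notes name HISAT2, HTSeq and DESeq2 instead, so the aligner is uncertain, and how strand was marked in the libraries is not given in the sources used here.

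Values were tested per table as log2(value + 1) for genes with a mean of at least 0.5, using limma 3.58.1 in R 4.3.3 with a trended prior, two-sided, with Benjamini-Hochberg adjustment over all genes and a threshold of 0.05. Fold changes on this scale understate those of low genes. Errors are standard errors for log2 fold changes and SD for levels. The script was tested on simulated data. Knockout was compared with control within each table. Members and gene lists were chosen with earlier results of these data known. All 10 members are named, and of each pathway list at most 3 called genes with the largest change, beside those that complete a small count. Symbols of 27 rows in each table had turned into dates and were not used by name. Promoters came from RefSeq. A planned comparison of protein sequences was not run. Same-lettered epithelium libraries did not deviate together (r = 0.0409, 0.00944 and -0.0573). Alternatives changed the pseudocount, filter, scaling, variance trend, replicate block and library set, and in the epithelium also removed the trend with gene length. The gene deleted in all epithelium libraries is not reported here.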

Additional observations from a re-analysis of the deposited data

Results flagged for a closer look

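Nfkb2 and Nfkbib were picked out because every library of the KO label lay on the opposite side of the controls in the 2 systems. Nfkb2 had a log2 fold change of 0.427 in the epithelium and of -0.432 in Myc-CaP, and Nfkbib of 0.184 and -0.0874. The differences between systems were not tested, since the tables were normalized separately. Of these 4 values the one for Nfkbib in Myc-CaP was not called, and those for Nfkbib in the epithelium and Nfkb2 in Myc-CaP each lost their call without single libraries. In Myc-CaP such refits lost most calls over all genes. With 3 or 2 libraries per group, no library could be examined as an outlier.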

How the results depend on the processing

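In the epithelium Rel, Nfkb1, Nfkb2, Nfkbie and Nfkbiz kept direction and call under all 14 refits. The number of members called was 6 to 10 in these refits, against 7, and 3 at the study's thresholds. The log2 fold change of Nfkb1 ranged from 0.25, with the length trend removed, to 0.64. Calls that changed were Relb (lost with same-sum scaling), Nfkbib (lost with the replicate block and without control A, control C, KO A or KO B), Nfkbia (called with same-sum scaling, quantile normalization and the length trend removed), and Rela and Bcl3 (called with same-sum scaling and the length trend removed). In Myc-CaP the number called was 1, and 0 without a filter, with median ratio scaling, without a trend and at the study's thresholds, and 0 to 0 with 1 library left out, where 2 to 3 members had an unadjusted limma p under 0.05 (3 to 4 in the other refits). With 1 Myc-CaP library left out, members that overlapped between groups turned direction: log2 fold changes ranged from -0.20 to 0.11 for Rel (0.095 without KO 1), -0.10 to 0.22 for Bcl3 (-0.011 without EV 1), -0.17 to 0.45 for Relb and -0.0051 to 0.064 for Nfkbiz. The cause was not tested. Leaving out a library left 1 in its Myc-CaP group, which was assumed to vary like the other group. Over all genes, 5872 were called in the epithelium with a minimum mean of 5, against 9294. In Myc-CaP 899 were called, but 358 without a filter, 451 without a trend and 47 to 76 with 1 library left out.

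With the replicate number as a block, 6 members were called in the epithelium (Nfkbib at an adjusted p of 0.0597). In Myc-CaP 4 were called, Nfkb2 and Rela lower and Nfkb1 and Nfkbia higher, and 2771 of all genes. With 2 Myc-CaP libraries per group, the deviations within a group mirror each other. The check thus gives a single value, r = 0.195 for same-numbered libraries and -0.195 for the others. It cannot show whether the libraries share more than a number.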
